A study of Mus musculus with 6 samples.

Results

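Transcripts of 10 genes for histone variants and histone chaperones were followed in libraries of mouse oocytes, taken at the germinal vesicle (GV) stage, when meiosis is arrested and the nucleus is still intact. The genes were H1foo, H3f3a, H3f3b, H2afz, Npm1, Npm2, Nasp, Hira, Asf1a and Asf1b, chosen by name, and all 10 were found among the 25239 genes of the count table. H1foo is listed there under its newer symbol H1f8 and H2afz under H2az1. The study set 3 libraries of oocytes injected with water against 3 of oocytes that received a phthalate metabolite mixture, to ask how it affects the oocyte. Phthalates are plasticizers. The labels give neither the dose nor the components of the mixture. All oocytes came from female CD-1 mice, an outbred strain with no engineered allele named in the labels, aged 4 to 6 weeks. Both groups were injected as cumulus-oocyte complexes (an oocyte with its follicle cells), and both were then cultured in maturation medium with 10% serum, 200 mIU/mL follicle-stimulating hormone and 50 µg/mL pyruvate. The labels name no animal or culture, and the protocol can be read as 1 oocyte per group. It is therefore not known if a group's 3 libraries stand for separate oocytes or for 1, and the spread between them may be technical. Each group was counted as 1 sample, no difference was tested, and every interval below is a 95% exact interval that covers counting error only.

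Chromatin is built from nucleosomes, in which DNA is wrapped around core histones, and a linker histone binds where the DNA enters and leaves. Canonical histones are made mainly during DNA replication, while variants such as H3.3 and H2A.Z can be placed in chromatin at any time. Chaperones carry histones from the cytoplasm to the DNA and hand them over. A GV oocyte does not replicate its DNA, and it stores transcripts and proteins that later repackage the sperm genome. H1foo encodes the linker histone of the oocyte, and Npm2 encodes nucleoplasmin, the egg protein known for decondensing sperm chromatin.

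The pair H3f3a and H3f3b shows what the counts can tell apart, since both encode the same H3.3 protein. Over 411 coding bases (GENCODE M21 transcripts, stop codon included) they differ at 95 bases, which leaves 76.9% identity, and 81 of the differences fall on the third base of a codon. The longest coding stretch with no difference is 23 bases, far shorter than the reads of 150 bases. The first 150 coding bases are shown 5′ to 3′, with the 32 bases that differ in capitals.
H3f3a: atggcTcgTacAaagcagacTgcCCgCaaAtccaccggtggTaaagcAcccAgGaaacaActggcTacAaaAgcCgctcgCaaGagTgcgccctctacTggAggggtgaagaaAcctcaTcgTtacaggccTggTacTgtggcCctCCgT
H3f3b: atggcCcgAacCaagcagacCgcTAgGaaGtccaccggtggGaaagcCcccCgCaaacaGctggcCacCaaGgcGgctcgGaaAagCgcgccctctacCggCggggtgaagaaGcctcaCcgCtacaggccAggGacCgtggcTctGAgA

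The 5′ flanks of these genes also differ, and they are shown beside that of H1foo because the 3 genes span a wide range of levels. The RefSeq promoter table (GRCm38.p6) held 8 of the 10 genes, all but Npm1 and Npm2. The 250 bases before the RefSeq start are chr6:115944681-115944930 on the plus strand for H1foo, chr1:180813606-180813855 on the minus strand for H3f3a and chr11:116024505-116024754 on the minus strand for H3f3b. The H3f3a and H3f3b windows lie inside the GENCODE spans of these genes given below, which begin further upstream, so they flank the RefSeq start only. Capitals mark the CCAAT box, the TATA box as TATAAA, part of the element bound by CREB family factors as TGACG, and the E-box as CANNTG, each searched on both strands.
H1foo: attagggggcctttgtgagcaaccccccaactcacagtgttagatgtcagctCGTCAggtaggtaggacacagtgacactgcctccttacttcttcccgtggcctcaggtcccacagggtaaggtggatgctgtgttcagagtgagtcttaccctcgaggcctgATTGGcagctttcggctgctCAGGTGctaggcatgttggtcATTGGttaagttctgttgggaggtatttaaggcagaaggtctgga
H3f3a: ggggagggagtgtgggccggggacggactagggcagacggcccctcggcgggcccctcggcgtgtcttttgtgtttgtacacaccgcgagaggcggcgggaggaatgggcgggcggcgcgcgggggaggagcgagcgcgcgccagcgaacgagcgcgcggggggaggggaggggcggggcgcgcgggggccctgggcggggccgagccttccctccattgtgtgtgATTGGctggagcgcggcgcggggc
H3f3b: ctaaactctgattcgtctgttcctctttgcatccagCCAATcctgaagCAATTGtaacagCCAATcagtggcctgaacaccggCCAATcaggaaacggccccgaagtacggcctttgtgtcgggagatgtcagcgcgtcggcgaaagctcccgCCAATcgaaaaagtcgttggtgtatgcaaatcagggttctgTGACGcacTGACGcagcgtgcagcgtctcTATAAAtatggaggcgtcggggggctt

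The H3f3b flank held 4 copies of CCAAT, beginning 214, 190, 167 and 97 bases before the start, 2 of TGACG at 56 and 48 bases, 1 E-box at 202 bases, and TATAAA at 27 bases. The H3f3a flank held 1 match, a CCAAT on the opposite strand at 24 bases. The H1foo flank held 2 CCAAT, at 86 and 45 bases, 1 TGACG at 198 bases and 1 E-box at 66 bases. Among all 32851 promoter windows of the same length, 33.8% held CCAAT and 0.84% held at least 4 copies, 12.4% held TATAAA, 17.8% held TGACG, 3.9% held at least 2 copies of it, and 66.2% held CANNTG. Asf1b was the other gene with 4 CCAAT copies, and H3f3b was the 1 gene of the 8 with TATAAA. None of these matches overlapped each other in the flanks shown, and a match is a string of letters, not a measured binding site.

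Library totals ranged from 252267 to 300917 gene counts. ERCC spike-in counts were 753 in water library 1 and 292 to 498 in the others. The ribosomal RNA precursor Rn45s took 2.02% to 2.35% of counts with water and 2.89% to 3.54% with phthalates, without overlap. With Rn45s left out of the totals, the 9 ratios given below kept their sign. Per library, 1542 to 1645 genes stood at a count of 2 and only 405 to 457 at a count of 1, the pattern that counting both reads of a pair gives. Intervals are therefore given on deposited counts and, where it matters, on counts halved to read pairs, which are wider. The oocyte label held against its markers: 7 of 8 oocyte markers had counts in every library, from 158 (Nlrp5) to 3296 (Gdf9), and Figla had 7 to 18 except in phthalate library 1, where it was at 0. Of 12 cumulus and granulosa markers, 6 were at 0 in all libraries, Amh and Foxl2 among them, and the summed markers had 0 to 5 counts per water library and 2 to 9 per phthalate library.

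The 10 genes together took 1.40% (1.38 to 1.43) of all gene counts with water and 1.31% (1.29 to 1.34) with phthalates. By library the share was 1.35%, 1.42% and 1.43% with water and 1.21%, 1.22% and 1.503% with phthalates. Phthalate library 3 thus had the highest share of the 6 and phthalate libraries 1 and 2 the lowest, so the groups overlapped. H1foo alone made up 59.4% of the counts of the 10 genes with water and 58.4% with phthalates, and from 56.2% to 60.5% in single libraries.

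Levels of different genes were compared per length, as CPM (counts scaled to a library total of 1000000, with TMM factors) divided by the median transcript length of the gene in kilobases. H1foo had the highest level, 7196 ± 955 CPM per kb (SD over the 6 libraries), rank 7 among 12702 genes with a count and a length. Npm2 followed at 3061 ± 439, rank 27, and H3f3b at 960 ± 234, rank 129. These 3 levels did not overlap in any of the 6 libraries. Next came Npm1 (508 ± 33.6, rank 318), H3f3a (495 ± 124, rank 329), Nasp (312 ± 39.3) and Asf1a (257 ± 79.6), followed by Asf1b at 126 ± 43.0 and H2afz at 71.8 ± 26.7. From Npm1 down to H2afz, each neighbouring pair in this order had overlapping ranges. Hira, at 4.17 ± 4.87 and rank 8451, lay below the median of 11.04 over all genes with a count. With the longest transcript as the length, H1foo had 6719 CPM per kb and rank 3, Npm2 2527 and rank 14, while H3f3a had 126 and stood below Nasp (133), so the order of H3f3a and Nasp rested on the length used.

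**Figure D1:**
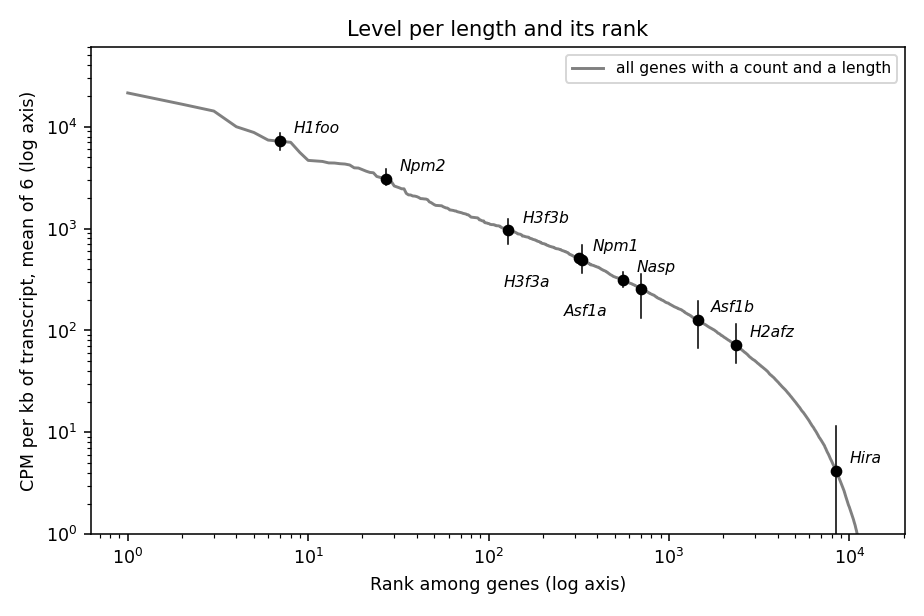
Mean level of each of the 10 genes over 6 libraries (CPM per kilobase of median transcript length, log axis) against its rank among all 12702 genes with a count and a length (log axis, grey line). Vertical bars run from the lowest to the highest library, and that of Hira is cut by the axis because 3 libraries had 0 counts. H1foo and Npm2 sit at ranks 7 and 27 and Hira at rank 8451.

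The linker histone gene H1foo (chr6:115944938-115950236, plus strand, GRCm38) had 2199, 2516 and 2400 counts after water (libraries 1, 2 and 3, the order kept from here on) and 1716, 2136 and 2443 after phthalates. In CPM this was 7818, 8494 and 8482 against 6636, 7072 and 9553. Phthalate library 3 was the highest of all and the other phthalate libraries were the lowest. The log2 ratio of phthalate over water, from summed counts, was -0.10 (-0.15 to -0.05). Without phthalate library 3 it was -0.27, and without phthalate library 1 it was -0.0053. No window of 50 bases of the H1foo transcript occurs in a transcript of another gene, so its counts are not shared with a copy.

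H3f3b (chr11:116021912-116027962, minus strand), the more abundant H3.3 gene, had 1223, 1671 and 1573 CPM after water and 1017, 1010 and 1764 after phthalates. As for H1foo, phthalate library 3 was above every water library and phthalate libraries 1 and 2 were below every one. The log2 ratio was -0.26 (-0.38 to -0.14), and it was -0.56 without phthalate library 3 and -0.097 without phthalate library 2. H3f3a (chr1:180800832-180813943, minus strand) had 281, 375 and 495 CPM with water and 263, 315 and 422 with phthalates. Its ratio was -0.21 (-0.45 to 0.03), the groups overlapped over most of their range, and the ratio was 0.012 with water library 3 left out.

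H3f3b gave most of the H3.3 counts in every library. Its share of the pair's counts was 81.3%, 81.7% and 76.1% after water, against 79.5%, 76.3% and 80.7% after phthalates. Summed over libraries it was 79.6% (77.5 to 81.5) with water and 79.0% (76.7 to 81.2) with phthalates, and at this depth no difference could be seen. Per kilobase of median transcript length, H3f3b lay 1.94-fold above H3f3a over all libraries, and 4.33-fold with the longest transcripts. For H3f3a, 30.3% of the windows of its transcript occur in other genes, 41 in number and mostly processed pseudogenes, against 8.4% for H3f3b. The largest part, 21.3% of the windows, occurs in Gm17275, a long non-coding RNA. Gm17275 and H3f3aos overlap H3f3a exons on the opposite strand. Neither the use of strand nor how reads with several matches were counted is given in the sources used here, so the H3f3a counts are the less certain of the pair.

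H2afz (chr3:137864487-137866922, plus strand), which encodes H2A.Z, the H2A variant found around transcription starts, was sparse. It had 20, 28 and 11 counts with water against 11, 13 and 15 with phthalates. The log2 ratio of -0.52 had an interval from -1.14 to 0.09, and the lowest library of all was water library 3. Leaving out water library 2 gave -0.20 and leaving out water library 3 gave -0.80. Of the transcript's windows, 69.6% occur in other genes, 60.8% in Tmcc1 and others in processed pseudogenes and a long non-coding RNA, which makes these counts uncertain. H2afv, listed as H2az2 and a separate gene for H2A.Z, had 81 summed counts with water and 99 with phthalates. Its log2 ratio was 0.37 (-0.07 to 0.81) with groups that overlapped. Its level was 99.6 CPM per kb, against 71.8 for H2afz.

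Among the chaperones, the nucleoplasmin genes took opposite signs. Npm2 (chr14:70647302-70659244, minus strand) had 2293, 2316 and 2439 CPM with water against 2676, 2212 and 3179 with phthalates. Phthalate libraries 1 and 3 were above every water library and phthalate library 2 was below every one. Its log2 ratio was 0.18 (0.09 to 0.27, or 0.06 to 0.31 on read pairs), the 1 ratio above 0 among the 9 genes with a ratio. It was 0.044 without phthalate library 3 and 0.32 without phthalate library 2. Exons of Xpo7, on the same strand, overlap those of Npm2, and Xpo7 had 56 counts with water and 31 with phthalates against 2021 and 2173 for Npm2.

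Npm1 (chr11:33152287-33163206, minus strand), which encodes nucleophosmin, the family member abundant in the nucleoli of dividing cells, had the smallest spread over the 6 libraries relative to its mean among the 9 genes above the filter on low counts. Its CPM was 515, 601 and 562 with water and 514, 510 and 536 with phthalates, a log2 ratio of -0.11 (-0.30 to 0.08). Npm2 made up 81.6%, 79.4% and 81.3% of the pair's counts with water against 83.9%, 81.3% and 85.6% with phthalates. The summed share was 80.7% (79.1 to 82.3) with water and 83.7% (82.2 to 85.1) with phthalates, and on read pairs the intervals ran from 78.4 to 82.9 and from 81.5 to 85.6. The libraries of the groups overlapped, because phthalate library 2 lay below water library 1. For Npm1, 40.9% of the transcript's windows occur in 11 other genes, all but Zfp605 processed pseudogenes, whereas Npm2 shares none.

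Nasp (chr4:116601052-116627941, minus strand) encodes a chaperone that holds a reserve of H3 and H4 and also binds linker histones. It had 377, 500 and 421 CPM with water against 360, 457 and 395 with phthalates. The log2 ratio was -0.09 (-0.31 to 0.13), the values of the groups interleaved, and the ratio was 0.030 with water library 2 left out.

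Asf1a and Asf1b encode the 2 forms of a chaperone that receives H3-H4 dimers and passes them to the complexes that assemble nucleosomes. Asf1a (chr10:53596757-53609225, plus strand) was the 1 gene of the 10 with a ratio past 1.5-fold. It had 70, 89 and 69 counts with water against 60, 34 and 42 with phthalates, or 249, 300.5 and 244 CPM against 232, 113 and 164. The 3 phthalate values lay below the 3 water values, though phthalate library 1 was close to them. The water group stood 1.59-fold above the phthalate group, a log2 ratio of -0.67 (-0.99 to -0.36, or -1.12 to -0.22 on read pairs). Among all 4644 genes that passed the count filter, 8.03% were lower past 1.5-fold and 7.02% higher, 15.1% in either direction. Groups that did not overlap were found for 10.2% of these genes, 4.87% with phthalate lower and 5.3% with it higher, and 3.1% were both lower past 1.5-fold and without overlap. No member was past 2-fold, against 2.78% of all genes. Among the 2784 genes whose mean count was 20 or more, as was that of Asf1a, 4.09% were lower past 1.5-fold, 8.12% were past it in either direction and 10.3% had groups without overlap. With 9 genes read, 1 past 1.5-fold is near these shares and is no result about the 10 genes as a set.

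The Asf1a ratio was below 0 in every setting tried, while its place past 1.5-fold rested on which libraries and which reads were counted. Leaving out phthalate library 2 gave a log2 ratio of -0.41 and leaving out water library 2 gave -0.56, both inside 1.5-fold. Without phthalate library 1 it was -0.95. Exons of Mcm9, a helicase gene on the opposite strand, overlap those of Asf1a, and 65.8% of the windows of the Asf1a transcript also occur in an Mcm9 transcript. Mcm9 had 6, 8 and 2 counts with water against 8, 18 and 10 with phthalates, so its sums (16 and 36) had the opposite order to those of Asf1a. The use of strand in counting is not given in the sources used here, so reads of the shared stretch cannot be assigned with certainty to either gene. With both genes summed, the CPM was 270, 327 and 251 against 263, 172 and 203, the groups overlapped, and the log2 ratio was -0.43 (-0.72 to -0.14).

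Asf1b (chr8:83955507-83970197, plus strand), the form tied to proliferating cells, had 26, 34 and 31 counts with water against 14, 48 and 22 with phthalates. In CPM the water libraries lay between 92.4 and 115, while the phthalate libraries spread from 54.1 in library 1 to 159 in library 2. The log2 ratio over all libraries was -0.04 (-0.48 to 0.40). It was -0.59 without phthalate library 2, past 1.5-fold, and 0.25 without phthalate library 1. Phthalate library 2 also had the highest summed cumulus and granulosa markers, with 9 counts, and the part of those cells in its Asf1b level was not tested.

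The Asf1 pair was the 1 pair whose shares spread widely within a group. Asf1b took 27.1%, 27.6% and 31.0% of the pair's counts in the water libraries. In the phthalate libraries it took 18.9% (10.7 to 29.7), 58.5% (47.1 to 69.3) and 34.4% (22.9 to 47.3), so the values of phthalate libraries 1 and 2 lay on both sides of the water group. Phthalate library 2 was the 1 library of the 6 with more Asf1b than Asf1a counts. The summed shares were 28.5% (23.6 to 33.8) and 38.2% (31.7 to 45.0), and the phthalate share was 26.1% without library 2 and 47.9% without library 1.

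**Figure D2:**
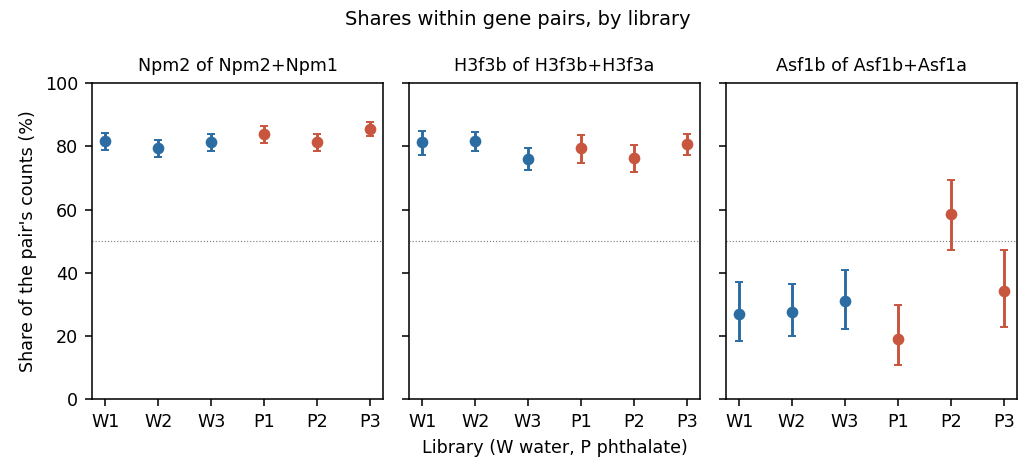
Share of a gene pair's counts (percent) taken by Npm2, H3f3b and Asf1b in each library, water in blue and phthalate in red, with 95% exact binomial intervals on deposited counts. Npm2 and H3f3b hold between 76.1% and 85.6% in all 6 libraries, while Asf1b ranges from 18.9% to 58.5% within the phthalate group.

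Hira (chr16:18877037-18970309, plus strand), the subunit that names the complex which deposits H3.3 outside replication, was near the limit of detection. It had 0, 2 and 2 counts with water against 3, 0 and 0 with phthalates. The summed 4 counts with water have an exact Poisson interval from 1.09 to 10.2, and the 3 with phthalates one from 0.619 to 8.77, so no difference could be seen at this depth and no ratio is given. Gm28539, an annotated gene on the same strand, contains 64.4% of the windows of the Hira transcript, and how reads common to both were assigned is not known.

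**Figure D3:**
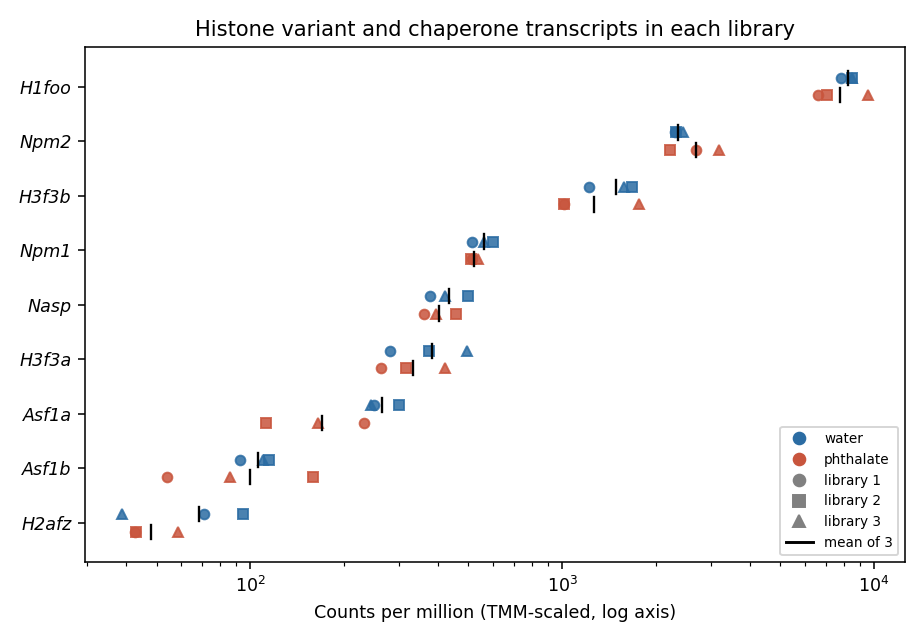
CPM of 9 of the 10 genes in each library (log axis), water in blue and phthalate in red, with a marker shape for each library number and a black line at the mean of 3. Hira, with 0 to 3 counts, is left out. Phthalate library 3 (red triangles) is the highest of the 6 for H1foo, Npm2 and H3f3b, and Asf1a is the gene whose groups do not overlap.

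In all, 9 of the 10 genes passed the filter on low counts, 8 had a ratio below 0 and 1 above, and their median log2 ratio was -0.11. Over all 4644 genes that passed, the median was 0.01 and 48.4% were below 0. Of the 8, H3f3a (0.012), Nasp (0.030) and Asf1b (0.25) rose above 0 with 1 library left out, while the others kept their sign. The intervals of H3f3a, H2afz, Npm1, Nasp and Asf1b held 0. The number of genes past 1.5-fold was 1 of 9 with all libraries, against 15.1% of all genes. It was 0 without water library 2, and 2 without water library 3 or without phthalate library 3, where H2afz joined Asf1a. Without phthalate library 2 it was 1, with Asf1b in place of Asf1a. With any 1 library left out, 18.8% to 22.1% of all genes that passed the filter were past 1.5-fold.

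**Figure D4:**
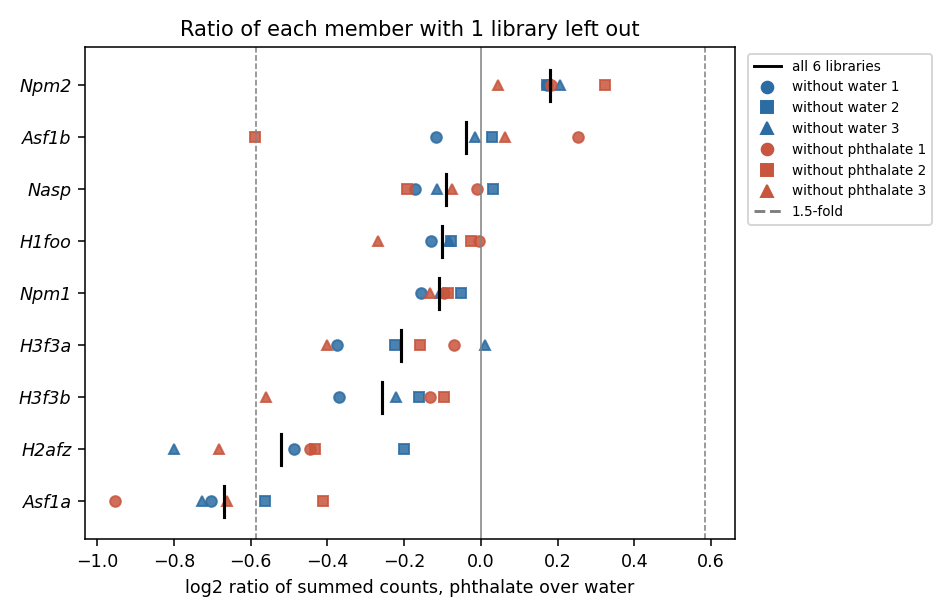
Log2 ratio of phthalate over water of each of 9 genes with all 6 libraries (black line) and with 1 library left out (blue, a water library; red, a phthalate library; shapes give the library number). Dashed lines mark 1.5-fold. Leaving out phthalate library 3 gives the lowest values of H1foo (-0.27) and H3f3b (-0.56), and leaving out phthalate library 2 moves Asf1b from -0.04 to -0.59.

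A list of 56 related genes set these values among partners of the same machinery, and 34 of them passed the filter. Their median log2 ratio was 0.02, with 2 higher and 4 lower past 1.5-fold. Against 7.02% higher and 8.03% lower among all genes, these counts are near the background. Among 16 partners of H3.3 and H3-H4 handling, 12 passed, the median was 0.01 and none was past 1.5-fold in either direction. Rbbp7, a histone-binding subunit of several chromatin complexes, had the highest level per length of the related genes at 1465 CPM per kb, and Atrx, the remodeller that works with Daxx in depositing H3.3, stood at 918. Their ratios were 0.07 (-0.03 to 0.17) and 0.05 (-0.12 to 0.22). Leaving out 1 library at a time gave -0.085 to 0.21 for Rbbp7 and -0.14 to 0.30 for Atrx, so neither sign held.

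Of 15 genes for H2A-H2B and H2A.Z chaperones and exchangers, 10 passed, with a median of -0.002, 1 higher and 3 lower past 1.5-fold (7.02% and 8.03% of all genes) and 2 with groups that did not overlap (10.2% of all genes). Srcap, the ATPase that exchanges H2A.Z into nucleosomes, had 103, 162 and 134 CPM with water against 65.7, 66.2 and 62.6 with phthalates. The groups did not overlap, the log2 ratio was -1.04 (-1.54 to -0.56), and it stayed between -1.18 and -0.87 with any 1 library left out. Vps72, a subunit of the same exchange complex that binds H2A.Z, had 107, 70.9 and 99.0 CPM against 69.6, 36.4 and 74.3, a ratio of -0.64 (-1.19 to -0.11, or -1.42 to 0.15 on read pairs). Its groups overlapped, and the ratio was within 1.5-fold without water library 1 (-0.52) or phthalate library 2 (-0.35). Srcap and Vps72 were named because their ratios were among the 3 lowest of the related genes. Ruvbl2 and Ep400, also in this list, had ratios of -0.02 (-0.33 to 0.29) and 0.08 (-0.15 to 0.31).

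The subunits of FACT, a chaperone that opens nucleosomes for polymerases, lay on opposite sides of 0. Ssrp1 had 92.4, 74.3 and 106 CPM with water and 108, 146 and 227 with phthalates, a log2 ratio of 0.81 (0.40 to 1.24) with groups that did not overlap. Supt16 had 117, 216 and 194 CPM with water and 65.7, 152 and 113 with phthalates, a ratio of -0.65 (-1.04 to -0.27) with groups that overlapped. Without phthalate library 3 the ratio of Ssrp1 was 0.50, and that of Supt16 was -0.39 without phthalate library 1, -0.47 without water library 2 and -0.58 without water library 3, all within 1.5-fold. Nap1l1, another H2A-H2B chaperone, had a ratio of 0.49 (0.08 to 0.90, or -0.09 to 1.08 on read pairs). It was past 1.5-fold without phthalate library 3 (0.72) or water library 3 (0.61), and 0.25 without phthalate library 1.

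Of 14 other histone variants, 5 passed, with a median of 0.37 and 1 higher past 1.5-fold, against 7.02% of all genes. That was H2afj, an H2A variant, with 103, 125 and 31.8 CPM with water against 104, 169 and 219 with phthalates. Its log2 ratio was 0.91 (0.49 to 1.34), and without water library 3, the lowest library, it was 0.52. Of 4 genes for loading the centromere variant CENP-A, 2 passed, with a median of -0.07.

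Of 7 genes that process the messages of replication-dependent histones, 5 passed, with a median of -0.05 and 1 lower past 1.5-fold, against 8.03% of all genes. That was Eri1 (43 and 27 counts, log2 ratio -0.60, interval -1.35 to 0.13), named after its value was seen. Slbp, which binds the stem-loop at the end of histone messages, had 665, 864 and 954 CPM with water and 464, 563 and 946 with phthalates, a ratio of -0.35 (-0.51 to -0.18). As for H3f3b, phthalate libraries 1 and 2 were below every water library, and its ratio was -0.68 without phthalate library 3 and -0.16 without phthalate library 1. The replication-dependent histone genes themselves, whose messages mostly end without a poly(A) tail, took 176 counts with water and 164 with phthalates over 69 genes. Their shares were 0.0206% (0.0177 to 0.0239) and 0.0199% (0.0170 to 0.0232) of all counts, and the intervals overlapped almost fully. Of the 69 genes, 35 had a count. The 69 were taken by symbol and include genes of the list of other variants, among them Hist1h2aa (listed as H2ac1) with 44 counts.

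**Figure D5:**
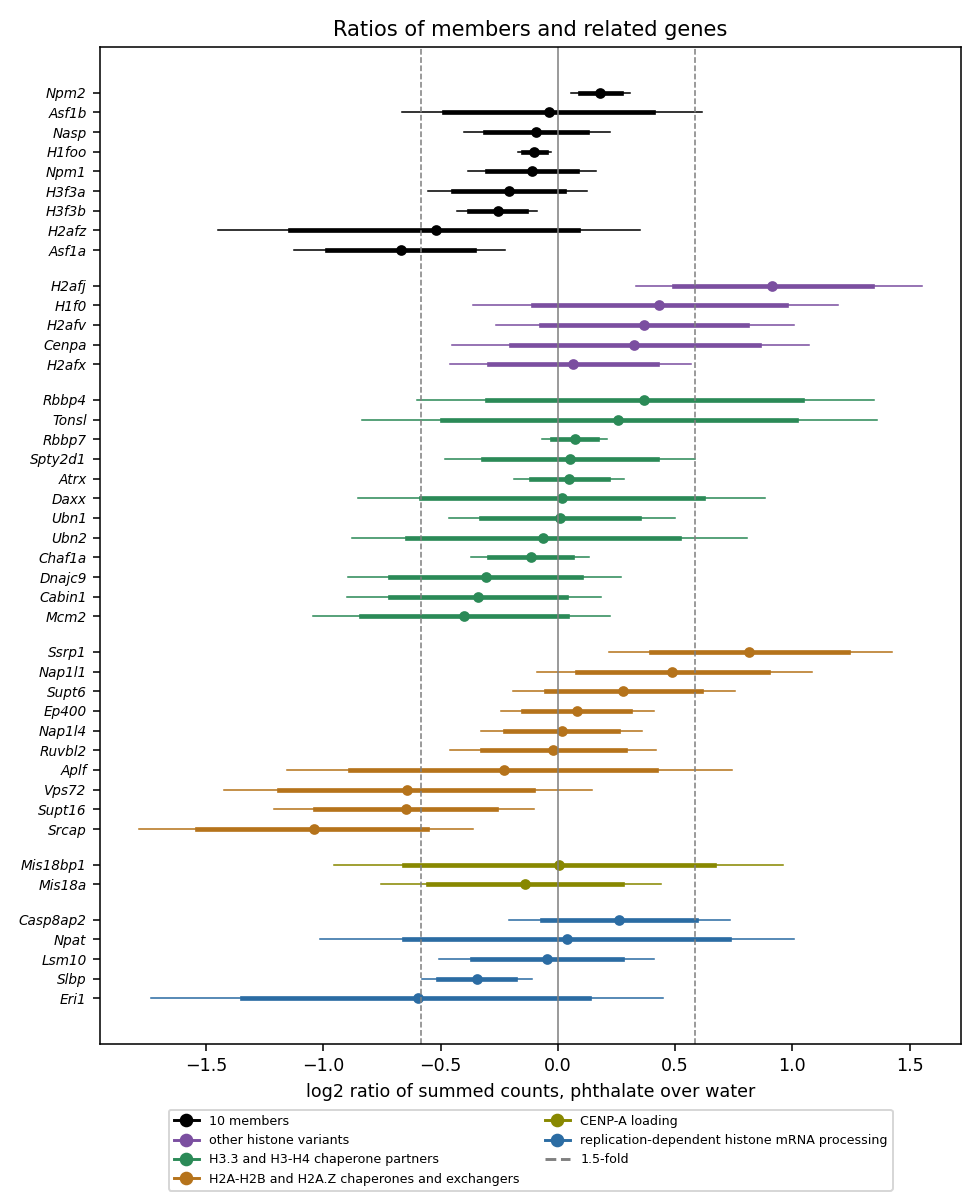
Log2 ratio of summed counts, phthalate over water, for 9 of the 10 genes (black) and 34 related genes that passed the filter, by list. Thick bars are 95% exact intervals on deposited counts, thin bars the same on read pairs, and dashed lines mark 1.5-fold. Srcap (-1.04) and H2afj (0.91) are the extremes, and Asf1a (-0.67) is the black point past a dashed line.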

How the data were processed

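The authors deposited 1 table of raw counts per gene symbol and ERCC spike-in for 6 Smart-seq3 libraries (full-length cDNA from an oligo(dT) primer, amplified by PCR). Per the submitters' processing notes, cutadapt, Trimmomatic, HISAT2, DESeq2 and the mm10 build were used, with no role or order given. The counting tool, annotation, use of strand and treatment of molecular identifiers are not given in the sources used here. Neither PCR duplicates nor the mates of a pair are separate molecules. Intervals cover counting error only and are too narrow.

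The 92 ERCC rows were left out. The filter on low counts was filterByExpr of edgeR at its defaults (a count of 10, a total of 15). Counts were summed per group and divided by totals scaled with TMM factors (edgeR 4.0.16, R 4.3.3), with no pseudocount. Ratio intervals are Clopper-Pearson intervals of 2 counts given their sum (scipy 1.17.1). A ratio past 1.5-fold was called. The ratio script was tested on simulated data. A gene could pass the filter through 1 group alone, so counts over genes that passed do not cover all members. Transcript lengths came from GENCODE M21 for 24705 of 25239 genes, and gene positions from GENCODE M21 on GRCm38, the assembly also called mm10. Shared sequence was the share of 50-base windows of a member's longest coding transcript that occur, on either strand, in another gene's transcripts.

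The 10 members, the related lists and the marker lists were chosen with earlier results of these data known. Of the related genes, the text names the 3 highest and the 3 lowest ratios at a mean count of at least 10. It also names the 3 with the highest level per length. Eri1 was added after its value was seen, as the 1 gene of its list past 1.5-fold. H2afv, Ruvbl2, Ep400 and Hist1h2aa were also added after their values were seen. Alternatives were DESeq2 size factors (DESeq2 1.42.0), no TMM, no filter, mean CPM, Rn45s left out, 2-fold, other lengths and each library left out. The sum of Asf1a and Mcm9, and the alternatives for named related genes, were chosen after seeing the data.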

Additional observations from a re-analysis of the deposited data

How the results depend on the processing

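The 45 member ratios under DESeq2 size factors, no TMM, no filter, mean CPM and Rn45s left out all kept their sign and stayed inside their counting intervals. Leaving out 1 library gave ranges of -0.27 to -0.0053 for H1foo, -0.56 to -0.097 for H3f3b, 0.044 to 0.32 for Npm2, -0.59 to 0.25 for Asf1b and -0.95 to -0.41 for Asf1a. The ranges were -0.40 to 0.012 for H3f3a, -0.19 to 0.030 for Nasp, -0.80 to -0.20 for H2afz and -0.16 to -0.051 for Npm1. The number of members past 1.5-fold ranged from 0 to 2 of 9 when 1 library was left out (18.8% to 22.1% of all genes), was 0 at 2-fold in place of 1.5-fold (2.78% of all genes), and was 0 with Asf1a and Mcm9 summed. With no TMM factor, 2 members had groups that did not overlap, Npm1 beside Asf1a, where all genes gave 10.0%. The CENP-A list had a median of 0.42 with no filter, since genes with few counts then entered. Leaving out 1 library gave medians from -0.11 to 0.11 for H2A-H2B and H2A.Z chaperones and from -0.23 to 0.0061 for histone message processing. With longest transcripts, levels were 2527 CPM per kb for Npm2, 547 for H3f3b, 331 for Npm1, 126 for H3f3a, 133 for Nasp, 98.6 for Asf1a and 57.4 for Asf1b, which follows from the greater lengths. No paired analysis was possible because with 1 sample per group there is no test to which a block could be added. Same-numbered libraries had correlations of deviations of 0.0539, 0.00461 and 0.0295, so the numbers gave no sign of pairing. At 252267 to 300917 counts per library, Hira and H2afz had few counts. The parts of depth and of sequence shared with other genes in this were not tested.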
